A study of Mus musculus with 24 samples.

Results

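The genes that copy DNA and supply its nucleotides were followed across mouse liver tumours and tumour-free liver. The 39 genes were selected by symbol, from the licensing factors that load the helicase to the enzymes that make deoxynucleotides, and each was read from the brightest of its probe sets. The arrays carried a probe set named for 1 gene alone for 38 of the 39, and all 38 were bright enough to test among 14086 genes in all. Chaf1a, the large subunit of the chromatin assembly factor, was the member without one and is not analysed here. Liver RNA came from B6C3F1 mice, a hybrid strain, of a National Toxicology Program bioassay in which males and females had received Ginkgo biloba extract in corn oil by gavage at 0, 200, 600 or 2000 mg/kg, 5 days a week for 2 years. There were 24 arrays in 4 groups of 6: hepatoblastoma (HB), a tumour of immature hepatocyte-like cells, hepatocellular carcinoma (HCC) that lay beside it, adjacent liver outside the tumours, and liver of vehicle control mice that received corn oil only. Every group came from this bioassay. The labels name no engineered allele, and they give no dose, sex, age or animal for single samples, nor which HCC arose in vehicle mice and which in treated ones. Whether each sample is its own animal is not stated either. The p-values therefore rest on differences among samples that may be partly technical. Values are over 6 samples a group, and over 5 in HCC for the reason given below.

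A cell licenses each origin once per cycle, when the origin recognition complex, Cdc6 and Cdt1 load the ring-shaped Mcm helicase onto DNA. Cdc45 and the GINS proteins then switch the helicase on, primase and the polymerases copy the strands, and a sliding clamp, its loader, a flap nuclease and a ligase finish the lagging strand. Ribonucleotide reductase, thymidylate synthase and dUTPase supply the deoxynucleotides and keep uracil out. E2F transcription factors, held back by pocket proteins in resting cells, are known to switch on many of these genes, and resting adult hepatocytes rarely replicate their DNA.

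Because E2F is the textbook regulator of these genes, their promoters were read for its site. RefSeq promoter sequences on GRCm38.p6, from 250 bases before to 50 bases after the annotated start, were held for 33 of the 39 genes. An E2F site was taken as TTTCCCGC, TTTCGCGC, TTTGCCGC or TTTGGCGC on either strand, and overlapping matches on opposite strands were counted separately. It was found in 12 of the 33 promoters (36.4%), against 704 of 27025 genes in the table (2.60%) and 4.30% of the 11296 tested genes with a promoter. The letters CCAAT, on either strand, were in 57.6% of the members' promoters and in 41.1% of all. The stretches of 60 bases below hold E2F sites, in capitals, that lie before the start of 6 genes whose transcripts are described further on, each read 5′ to 3′ along its gene. A further site of Mcm6, nearer its start, and sites of Mcm7 and Rfc3 at or past the start lie outside the printed stretches.

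Mcm6, chr1:128359782-128359841, minus strand: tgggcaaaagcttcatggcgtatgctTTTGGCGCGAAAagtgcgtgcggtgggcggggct
Mcm5, chr8:75109332-75109391, plus strand: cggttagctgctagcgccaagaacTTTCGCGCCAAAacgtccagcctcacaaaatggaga
Mcm7, chr5:138172015-138172074, minus strand: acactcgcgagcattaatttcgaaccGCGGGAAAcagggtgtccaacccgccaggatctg
Orc1, chr4:108579394-108579453, plus strand: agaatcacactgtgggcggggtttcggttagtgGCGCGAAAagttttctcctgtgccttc
Cdc6, chr11:98907987-98908046, plus strand: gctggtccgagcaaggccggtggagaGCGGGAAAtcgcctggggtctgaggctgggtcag
Rfc3, chr5:151651209-151651268, minus strand: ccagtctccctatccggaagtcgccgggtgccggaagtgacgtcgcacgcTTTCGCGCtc

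In Mcm6 and Mcm5 a pair of sites on opposite strands overlapped into 1 block of capitals, and in Rfc3 the first site began 10 bases before the annotated start. Mcm3, Lig1, Pold1, Cdt1, Gins3 and Pola1 made up the rest of the 12. A match is a run of letters and shows neither binding nor use of the site.

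The arrays differed in ways that touch what follows. HCC replicates 3 and 4 lay far closer together than any other pair (a scaled median deviation of 0.196 between their log2 values over 9000 bright probe sets, against 0.372 to 0.804 in the other pairs of 60) and were averaged, which left 23 samples. Each array had been scaled to the same trimmed mean, yet the median intensity was 144 to 202 on the HB arrays and 75.8 to 145 on the others. Xist, which is transcribed from the inactive X chromosome, read 12430 or more on 5 arrays (vehicle replicates 1, 2, 4 and 5 and adjacent liver replicate 6) and at most 99.3 elsewhere. Albumin transcript read 26301 to 51640 in both tumour-free groups and 22998 to 38655 in HCC. In HB it read 229 to 1630 on 4 arrays, 15782 on replicate 5 and 28758 on replicate 4. This liver-defining transcript was thus scarce on 4 of the 6 HB arrays. The log2 ratio of the Gapdh 3′ to the Gapdh 5′ control probe set, which read opposite ends of the same transcript, also differed. It was 1.08 to 1.66 in HB and 1.67 to 2.11 in vehicle liver, without overlap. In HCC it was 0.88 to 2.15 and in adjacent liver 1.22 to 2.37. The part of this ratio in the differences below was not tested.

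In HB, 29 of the 38 genes rose against vehicle control liver, 3 fell and 6 did not pass the threshold, an adjusted p under 0.05 in limma over all 14086 genes. Of all genes tested, 37.4% were called higher and 23.1% lower, so the members were called higher at 76.3% against a high background. Their median log2 difference was 1.22, against 0.34 over all genes, and 27 of those that rose at least doubled on the log2(intensity + 16) scale used throughout. In 11 of them every HB sample lay above every vehicle sample, which 21.8% of all genes also did. Genes that rose were found among the licensing factors, the helicase, the polymerases and the lagging strand enzymes. Of the 29, Cdc6 and Tyms passed the detection filter only through their HB arrays, so their rises are no independent support. Mcm10, Rfc5 and Tk1 fell, and Gmnn, Prim1, Pola2, Slbp, E2f1 and Ung did not pass.

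**Figure D1:**
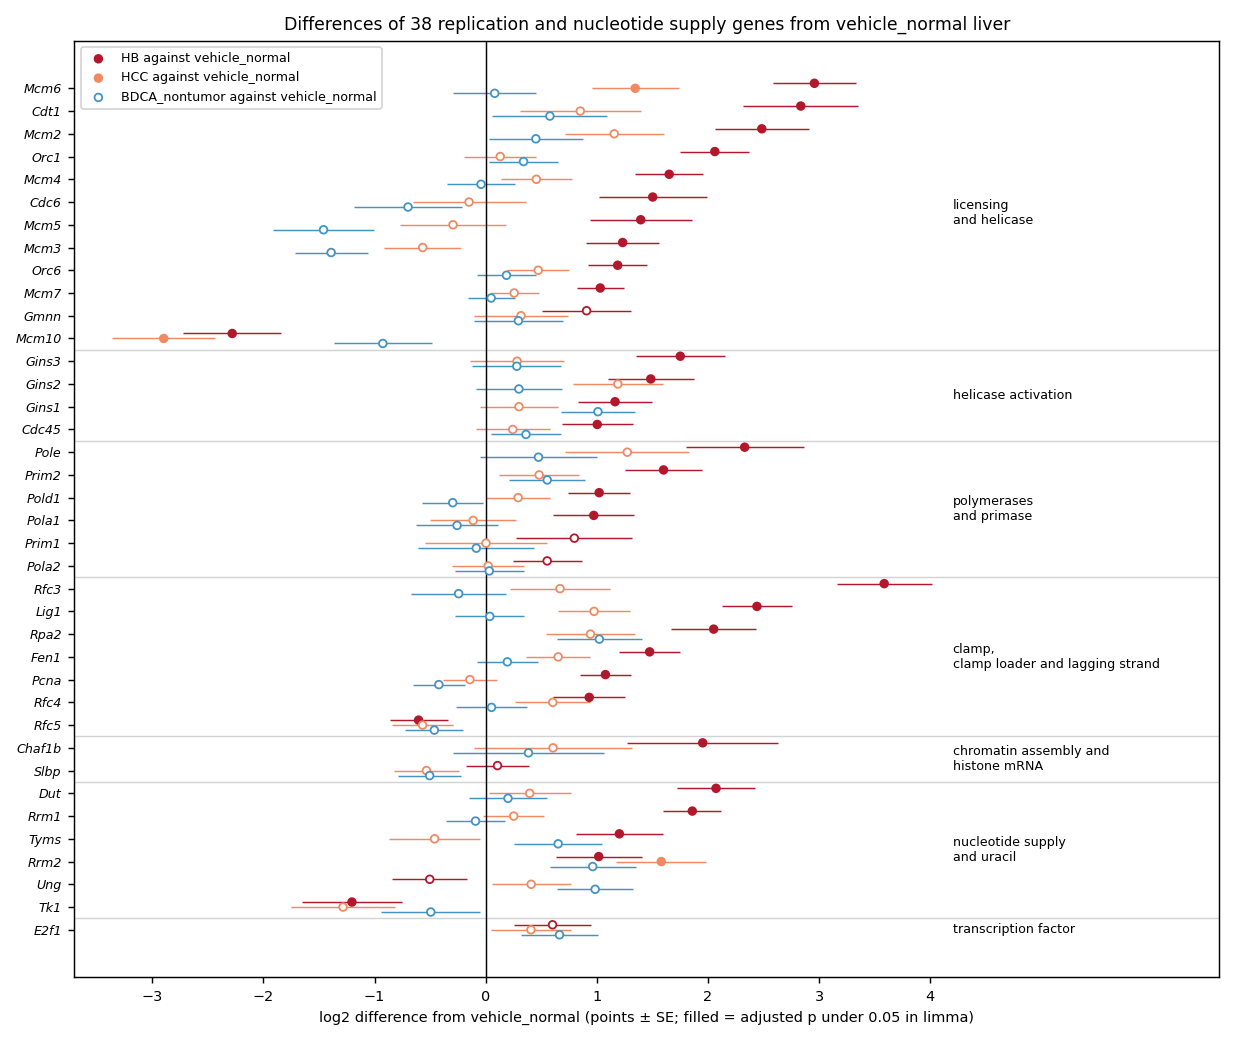
Log2 difference (x axis) of each of the 38 genes (y axis, grouped by role) from vehicle control liver in HB, HCC and adjacent liver (BDCA_nontumor), as points with the standard error, filled where the adjusted p in limma was under 0.05. HB points run from -2.28 for Mcm10 to 3.58 for Rfc3 and lie right of 0 for 34 genes, while the HCC and adjacent liver points centre on 0.31 and 0.13.

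Of the 12 licensing and helicase genes, 10 rose, 1 fell and 1 was not called, with a median log2 difference of 1.45. Mcm6, a subunit of the helicase ring, read 1749.6 at the lowest, 4849 at the median and 6045 at the highest in HB, against 334, 483 and 876 in vehicle liver. The groups did not overlap, and the difference was 2.96 ± 0.37 (SE) on the log2 scale, a 7.76-fold rise (adjusted p = 2.10e-07). Mcm2, another ring subunit, read 330.2 to 1129 (median 641) in HB and 63.6 to 159.5 (median 90.7) in vehicle liver, again with no overlap, and rose by 2.48 ± 0.42 (adjusted p = 1.74e-05). The remaining ring subunits rose less: Mcm4 by 1.65, Mcm5 by 1.39, Mcm3 by 1.23 and Mcm7 by 1.03. Mcm5 in HB (835 to 2258, median 1306) overlapped vehicle liver (268 to 1558, median 399) through the vehicle array that read 1558, replicate 6.

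Among the factors that load the ring, Cdt1 had the largest difference. It read 529.8 at the lowest, 2382 at the median and 3663 at the highest in HB and 52.5, 350 and 999.5 in vehicle liver, a rise of 2.83 ± 0.52 (7.13-fold, adjusted p = 4.45e-05). HB replicate 4, the array with the most albumin transcript, gave the lowest value and was the only HB sample within the vehicle range. Orc1, the largest subunit of the origin recognition complex, read 261 to 575 (median 397) in HB and 60.6 to 104 (median 84.7) in vehicle liver and rose by 2.06 ± 0.31 (adjusted p = 3.15e-06) without overlap. Orc6, its smallest subunit, rose by 1.19 (no overlap), and Cdc6, the ATPase that works with it, rose 2.83-fold (adjusted p = 0.00965), although 15 of the 18 arrays outside HB read Cdc6 below the detection filter of 66.3. Cdc6 passed that filter, which asks for 6 arrays above it, only with its HB arrays counted. Gmnn encodes geminin, which blocks Cdt1 once an origin has fired. It read 220 to 857 in HB and 142 to 485 in vehicle liver, and its difference of 0.91 ± 0.40 just missed the threshold (adjusted p = 0.0539).

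Mcm10, a scaffold protein that joins the fork after the ring is loaded, went the other way on its brightest probe set. It read 151 at the lowest, 258 at the median and 1291 at the highest in HB, against 1101, 1464 and 2276 in vehicle liver. Its log2 difference was -2.28 ± 0.44 (adjusted p = 9.15e-05), and the groups overlapped only through HB replicate 2, at 1291. This direction rests on the choice of probe set, as described further on.

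**Figure D2:**
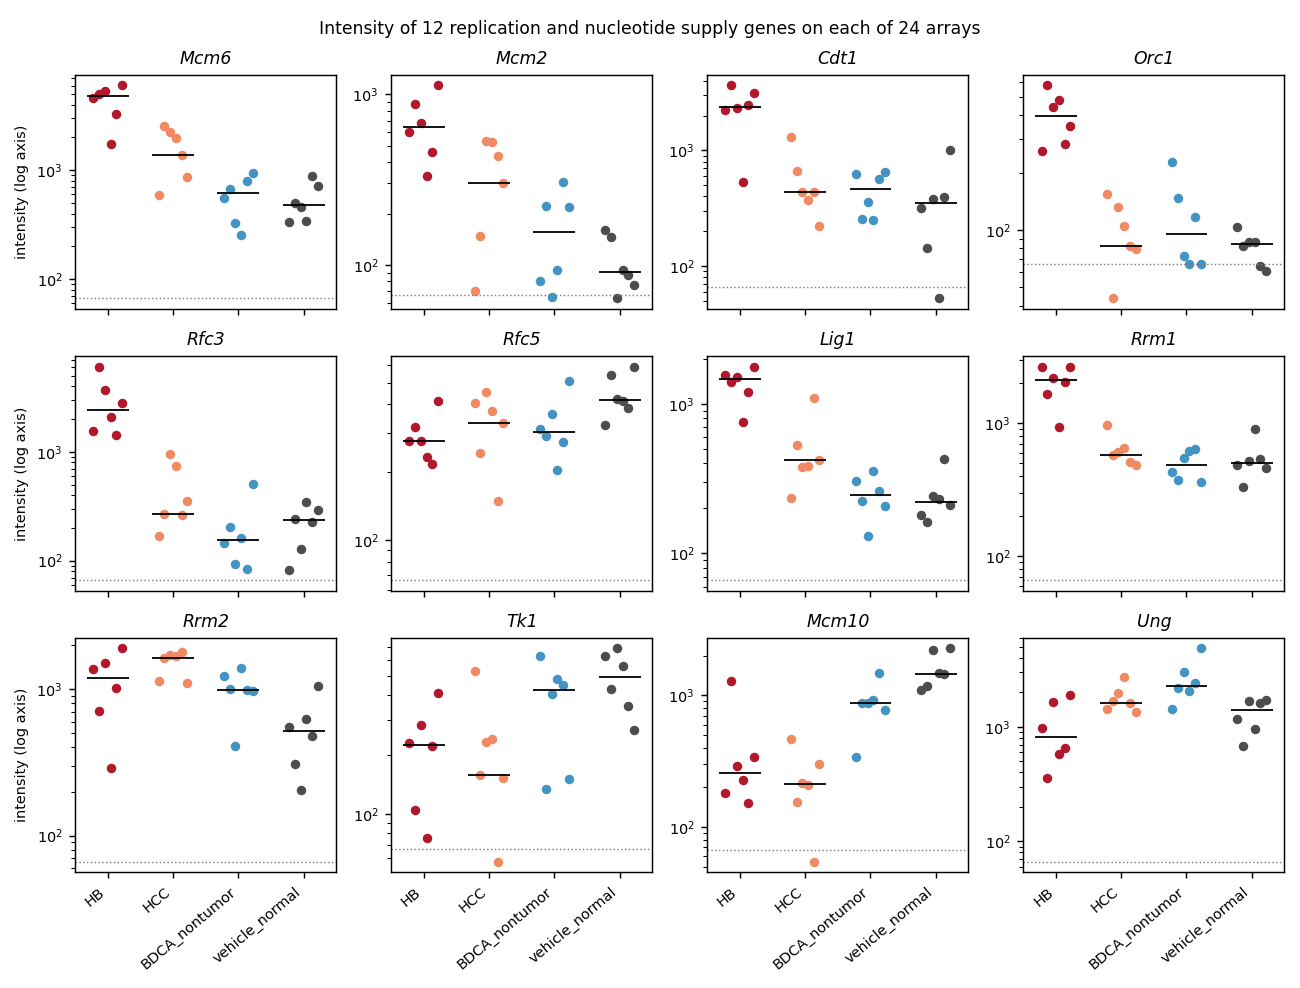
Intensity of 12 genes on each of the 24 arrays (log axis), by group, with the median as a line (over 5 values in HCC, where replicates 3 and 4 were averaged) and the detection filter of 66.3 as a dotted line. Rfc3, Mcm6, Mcm2, Orc1, Lig1 and Rrm1 separate HB from vehicle control liver, Rrm2 is highest in HCC, and Mcm10 is highest in vehicle control liver.

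All 4 helicase activation genes rose in HB, by 1.00 to 1.75. Gins3, a GINS subunit, rose by 1.75 ± 0.40 (adjusted p = 5.66e-04), Gins2 by 1.48 ± 0.39 (adjusted p = 0.00179) and Gins1 by 1.16 ± 0.34 (adjusted p = 0.00440). Gins1 read 296 to 748 (median 444) in HB and 122 to 238 (median 201) in vehicle liver, with no overlap. Cdc45, the partner that completes the active helicase, rose by 1.00 ± 0.32 (adjusted p = 0.00843), from a median of 150 to a median of 293. The gains here were smaller than those of Mcm6 and Cdt1 and, under quantile normalization, Gins3 alone of the 4 stayed past the threshold.

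Of the 6 polymerase and primase genes, 4 rose. Pole, the catalytic subunit of the leading strand polymerase, read 248 to 701 (median 432) in HB and 25.2 to 212 (median 66.6) in vehicle liver, a difference of 2.33 ± 0.53 (5.03-fold, adjusted p = 5.20e-04) without overlap. Prim2, the large primase subunit, rose by 1.60, Pold1, the catalytic subunit of the lagging strand polymerase, by 1.02, and Pola1, the catalytic subunit of the polymerase that starts each strand, by 0.97. Pola1 (adjusted p = 0.0243) lost its call when any 1 of 4 arrays was left out (HB replicate 1, 3 or 6 or vehicle replicate 6), with adjusted p up to 0.0761. Their partner subunits did not pass: Prim1, the small primase subunit, differed by 0.80 ± 0.52 (adjusted p = 0.191) and Pola2 by 0.55 ± 0.31 (adjusted p = 0.127).

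The clamp, clamp loader and lagging strand genes held the largest difference of the 38. Rfc3, a subunit of the clamp loader, read 1414 at the lowest, 2444 at the median and 6048 at the highest in HB, against 82.3, 235 and 346 in vehicle liver. Every HB array lay far above every vehicle array, and the difference was 3.58 ± 0.43 on the log2 scale (adjusted p = 8.64e-08). Rfc4, another loader subunit, rose by 0.93, while Rfc5 fell by 0.60 ± 0.26 (217 to 413 in HB, 324 to 588 in vehicle liver, adjusted p = 0.0480). Subunits of 1 complex thus differed in sign. The call for Rfc5 was lost when any 1 of 10 arrays was left out, with adjusted p from 0.0518 to 0.105, and only leaving out HB replicate 6 or vehicle replicate 1 kept it.

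Lig1, the ligase that joins Okazaki fragments, read 753 to 1770 (median 1457) in HB and 162 to 429 (median 222) in vehicle liver and rose by 2.44 ± 0.31 (5.43-fold, adjusted p = 2.62e-07), with no overlap. Rpa2, a subunit of the single-strand binding protein, rose by 2.05, Fen1, the flap nuclease, by 1.47 and Pcna, the sliding clamp itself, by 1.08. Pcna, widely used to stain dividing cells, thus had one of the smaller gains: a median of 2938 in HB and 1277 in vehicle liver. Chaf1b, a subunit of the chromatin assembly factor that follows the fork, read 10.7 to 634 (median 281) in HB and 6.03 to 70.0 (median 29.6) in vehicle liver. It rose by 1.95 ± 0.68 (adjusted p = 0.0158), with the largest standard error of the 38, and lost the call without HB replicate 2 (adjusted p = 0.0512). Slbp, which binds the end of histone mRNAs, differed by 0.11 ± 0.28 (adjusted p = 0.762).

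Of the 6 nucleotide supply and uracil genes, 4 rose, 1 fell and 1 was not called. Dut, the dUTPase that removes dUTP, read 416 to 2718 (median 1504) in HB and 179 to 421 (median 314) in vehicle liver, a rise of 2.07 ± 0.35 (adjusted p = 1.71e-05), with an overlap through 1 HB array, replicate 4. Rrm1, the large subunit of ribonucleotide reductase, read 934 to 2656 (median 2118) in HB and 332 to 899 (median 502) in vehicle liver, and rose by 1.86 ± 0.26 (adjusted p = 1.22e-06) without overlap. Rrm2, the small subunit whose supply limits the enzyme in S phase, rose by less, 1.02 ± 0.39 (adjusted p = 0.0257), and overlapped (290.5 to 1901 against 204 to 1046). The Rrm2 call was lost without any 1 of 5 arrays (HB replicate 1, 3 or 6 or vehicle replicate 2 or 3), with adjusted p up to 0.0815. Tyms, thymidylate synthase, rose by 1.20, from a level below the detection filter on 5 of the 6 vehicle arrays. It passed that filter only with its HB arrays counted.

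Tk1, the cytosolic thymidine kinase of the salvage route, fell by 1.20 ± 0.45 (75.8 to 409 in HB, 267 to 689 in vehicle liver, adjusted p = 0.0226). So the thymidylate enzymes of the new-synthesis and salvage routes differed in sign. The Tk1 call was lost without HB replicate 2, HB replicate 4 or vehicle replicate 3 (adjusted p up to 0.0664). Ung, the glycosylase that cuts uracil from DNA, differed by -0.50 ± 0.34 (adjusted p = 0.204). E2f1 differed by 0.60 ± 0.34 (149 to 456 in HB, 94.9 to 314 in vehicle liver, adjusted p = 0.134) on its brightest probe set.

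The E2F sites printed above lay among genes that rose. Of the 24 genes that rose and had a promoter in the table, 12 held a site, and of the 8 other measured members with a promoter none did. This split follows the brightest probe sets. Among the 8, Mcm10, E2f1 and Prim1 each had a further set that was called higher, as described further on. Over all tested genes the gap was small: 5.30% of the 4210 called higher in HB and 3.71% of the 7086 not called higher held a site. These are counts of letters beside calls, given with no test.

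Fewer of these calls were made under other scalings. With quantile normalization 20 of the 38 were called higher and 3 lower (median 0.98), where 28.1% of all genes were called higher and the median of all genes was 0.00. With each array centred on its median, 13 were called higher and 4 lower (median 0.48), where 17.4% of all genes were called higher and the median of all genes was -0.40. Of all 14086 genes, 4079 were called lower with quantile normalization and 5439 with median centring. All 29 genes called higher kept a positive difference under both scalings, although E2f1, Pola2 and Slbp, which were not called, changed sign. Rfc3, Mcm6, Cdt1, Mcm2, Lig1, Pole, Dut, Orc1, Rpa2, Rrm1, Gins3, Mcm4 and Prim2, 13 genes, were called higher under every alternative that tested them.

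HB arrays were not alike. Each gene was centred on its own mean over the arrays and the 38 values of an array were averaged, which gave 0.07 on HB replicate 4, 0.64 on replicate 5 and 0.84 to 1.40 on the other 4 HB arrays. The values were -0.47 to 0.17 in HCC, -0.57 to -0.20 in adjacent liver and -0.57 to -0.20 in vehicle liver. HB replicate 4 was the lowest of the 6 HB arrays for 24 of the 38 genes and HB replicate 6 the highest for 18. Replicate 4 also had the most albumin transcript (28758) and the least Mki67 (968, against 3113 to 6618 on the others), a gene of dividing cells. Without the albumin-rich HB replicates 4 and 5, 31 genes were called higher (34.9% of all genes) and 1, Mcm10, lower, and the median was 1.42 in place of 1.22.

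**Figure D3:**
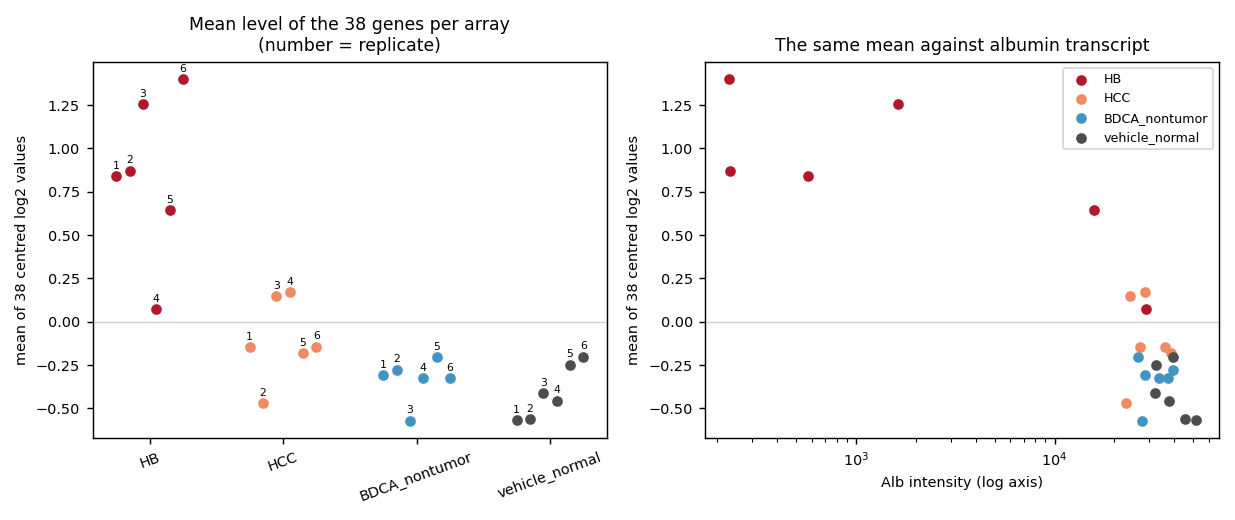
Left, the mean of the 38 centred log2 values on each array (y axis) by group, numbered by replicate; right, the same mean against albumin (Alb) intensity on a log axis. HB replicates 1, 2, 3 and 6, at 0.84 to 1.40, have albumin at 1630 or less, and HB replicate 4, at 0.07, lies among the HCC arrays on both axes.

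Transcripts of other cells moved beside these genes. In HB against vehicle liver 7 of 7 hepatocyte markers fell (summed intensity 401 to 69315 in HB, 201575 to 302260 in vehicle liver), as did 7 of 7 of Kupffer cells (576 to 1670 against 8431 to 35207), 6 of 7 of endothelium (487 to 3136 against 9233 to 12459), 6 of 7 of lymphocytes (161 to 494 against 1515 to 7600), 5 of 7 of stellate cells (2222 to 13051 against 16406 to 20851) and 3 of 6 of granulocytes (221 to 812 against 1301 to 7802). Of these markers, 3 of Kupffer cells, 2 of endothelium, 4 of lymphocytes, 3 of granulocytes and 1 of stellate cells lay below the detection filter on all 6 HB arrays. For granulocytes the sum and this count are over 8 markers, of which 6 were tested. All 4 biliary markers rose (1030 to 3883 against 105 to 564), with Krt7 up by 2.31 and Sox9 by 2.31, and of the 2 erythroid markers tested Slc4a1 rose and Alas2 fell. Mki67 rose by 3.76 ± 0.57 and Top2a, the topoisomerase of dividing cells, by 4.02 ± 0.54 (adjusted p = 3.95e-06 and 5.59e-07). These are bulk samples, in which fewer cells of a type and less RNA per cell cannot be told apart, and the part of these shifts in the result was not tested.

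The array sets also differed in Xist: 4 of the 6 vehicle arrays carried it, and no tumour array did. Without the 5 arrays that did, which left 2 vehicle samples, 21 genes were called higher in HB (27.9% of all genes) and 1, Mcm10, lower, and the median was 1.21. Mcm3, Mcm5, Rrm2, Cdc6, Gins1, Pola1, Rfc4 and Chaf1b lost their calls, as did Tk1 and Rfc5.

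Few of these genes were called in HCC against vehicle control liver, and a gene not called is not shown to be unchanged. Of the 38, 2 rose (4.44% of all genes were called higher), 1 fell (2.88% were called lower) and 35 were not called, with a median log2 difference of 0.31 against 0.08 over all genes. Without adjustment 11 had a p under 0.05. Rrm2 read 1109.5 at the lowest, 1638 at the median and 1793 at the highest in HCC, against 204, 516 and 1046 in vehicle liver, and rose by 1.58 ± 0.41 (2.99-fold, adjusted p = 0.0174). Each HCC sample lay above each vehicle sample.

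Mcm6 in HCC read 593 to 2568 (median 1395), against 334 to 876 (median 483), and rose by 1.35 ± 0.39 (adjusted p = 0.0352). Its call was lost without any 1 of 7 arrays or array pairs (HCC replicate 2, 5 or 3 with 4, or vehicle replicate 1, 2, 3 or 4), with adjusted p from 0.0579 to 0.105. Mcm10 fell by 2.90 ± 0.46 (54.4 to 467 in HCC, 1101 to 2276 in vehicle liver, adjusted p = 3.73e-04), with no overlap. This call held under every alternative, but it too is that of the brightest probe set. Set 1433407_at was also lower in HCC (median 105 against 798). Set 1454244_at read 6.37 to 133 (median 43.8) in HCC and 26.7 to 65.2 (median 41.1) in vehicle liver. Each of these medians lay below the detection filter, so this set cannot decide the direction in HCC. Lig1 (0.97 ± 0.33, adjusted p = 0.0674) and Gins2 (1.19 ± 0.40, adjusted p = 0.0716) came next and did not pass. Quantile normalization called Rrm2 higher and Mcm10 lower (52.6% of the called genes were higher, against 60.6% as deposited). With each array centred on its median (37.4%), or without the 5 arrays with Xist, neither Rrm2 nor Mcm6 was called. Mki67 rose in HCC by 2.07 ± 0.60 (adjusted p = 0.0358), and Top2a differed by 1.52 ± 0.56 (adjusted p = 0.102).

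Adjacent liver gave no call among the 38 in limma, in a comparison where 0.0781% of all genes were called higher and 0.0213% lower. Without adjustment 7 of the 38 had a p under 0.05, and the median was 0.13 against 0.01 over all genes. Gins1 read 255 to 786 (median 372) in adjacent liver and 122 to 238 (median 201) in vehicle liver without overlap, a difference of 1.01 ± 0.34 that did not pass (adjusted p = 0.264). Mcm3 and Mcm5 had the most negative differences, -1.39 ± 0.33 (adjusted p = 0.0928) and -1.46 ± 0.46 (adjusted p = 0.228). Mki67 differed by 0.40 ± 0.57 (adjusted p = 0.863).

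HB and HCC were also compared with each other. HB was higher for 23 of the 38 (29.2% of all genes were called higher), lower for 1 (21.7% were called lower) and not called for 14, with a median of 1.07 against 0.19 over all genes. In 6 genes, Rfc3, Mcm3, Mcm5, Orc1, Pcna and Tyms, every HB value lay above every HCC value once HCC replicates 3 and 4 were averaged, which 16.9% of all genes also did. Such separation was thus no more frequent among the 38 than over all genes. For Mcm5 the separation rests on the averaging, since HCC replicate 3 alone read 1025 and the lowest HB sample 835. Rfc3 again led, at 2.92 ± 0.45 (7.55-fold, adjusted p = 6.50e-06), with HCC at 168 to 838 (median 269). Cdt1 differed by 1.98 ± 0.54 (adjusted p = 0.00366) and Orc1 by 1.93 ± 0.32 (adjusted p = 2.21e-05). Mcm3 read 953 to 2265 (median 1781) in HB and 214 to 821 (median 386) in HCC, a difference of 1.80 ± 0.35 (adjusted p = 1.14e-04). Tyms read 84.6 to 161 (median 99.1) in HB and 3.90 to 59.7 (median 14.5) in HCC, where 5 of the 6 arrays lay below the detection filter, and differed by 1.66 ± 0.41 (adjusted p = 0.00156). Tyms passed that filter only through HB, so its place among the 6 separated genes is no independent support. Rrm2, the gene with the largest rise in HCC, did not differ past the threshold between the tumours (-0.56 ± 0.41, adjusted p = 0.253).

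Ung was the 1 gene lower in HB than in HCC. It read 358 at the lowest, 818 at the median and 1901 at the highest in HB, and 1351, 1634 and 2324 in HCC, a difference of -0.91 ± 0.36 (adjusted p = 0.0347). The call for Ung was lost without any 1 of 6 arrays or array pairs (HB replicate 2, 4 or 5, or HCC replicate 2, 5 or 3 with 4), with adjusted p up to 0.104. Among those called higher, Pold1 lost the call without any 1 of 7 arrays or array pairs (HB replicate 1, 3, 5 or 6, or HCC replicate 1, 2 or 3 with 4, adjusted p 0.0592 to 0.105). Gins1 lost it without any 1 of 7 (HB replicate 1, 2, 3 or 6, or HCC replicate 2, 5 or 6, adjusted p from 0.0599), and Orc6 without any 1 of 6 (HB replicate 4, 5 or 6, or HCC replicate 2, 6 or 3 with 4, 0.0518 to 0.0860). Rpa2 lost it without HB replicate 2 or 6 or HCC replicate 2, 6 or 3 with 4 (up to 0.0621), and Pola1 without HB replicate 3 or 6 or HCC replicate 2 (up to 0.0610). Mcm2 missed without HCC replicate 1 (0.0681) and Fen1 without HCC replicate 2 (0.0697). With quantile normalization 15 genes were called higher and 1 lower (23.8% of all genes higher), and with median centring 7 higher and 2 lower (14.6% of all genes higher). Of all 14086 genes, 3792 were called lower with quantile normalization and 4973 with median centring. Rfc3, Cdt1, Orc1, Mcm3, Rrm1, Tyms and Dut kept their calls under every alternative that tested them.

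Against adjacent liver, HB was higher for 24 of the 38 (34.3% of all genes) and lower for 2 (22.4% of all genes), with a median of 1.21 against 0.28. In 12 genes the groups did not overlap, as for 19.4% of all genes. Rfc3 (3.83 ± 0.43), Mcm6 (2.88 ± 0.37), Mcm5 (2.85 ± 0.46) and Mcm3 (2.62 ± 0.33) had the largest differences, and the Mcm5 range in adjacent liver was 67.6 to 439 (median 174). Ung fell by 1.49 ± 0.34 (adjusted p = 5.83e-04), from a range of 1432 to 4854 (median 2294) in adjacent liver, and this call held under every alternative. Mcm10 was lower by 1.36 ± 0.44 (adjusted p = 0.0112) on its brightest probe set, and the difference was 0.081 (adjusted p = 0.867) on the mean of its kept probe sets. Rfc4 lost its call without HB replicate 2 or 6 or adjacent liver replicate 1 (adjusted p up to 0.0593), and Rpa2 without HB replicate 2 or 6 (up to 0.0642). With quantile normalization 18 were called higher and 4 lower, and with median centring 13 and 4, where 27.5% and 17.1% of all genes were called higher. The share of higher among all called genes was 60.5% as deposited, 49.4% and 31.9%. This comparison and those above share the HB or the control samples and are not independent of each other.

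HCC and adjacent liver differed in 1 of the 38: none was called higher (1.32% of all genes) and Mcm10 was called lower (0.511% of all genes), by 1.97 ± 0.46 (adjusted p = 0.0242). Without adjustment 7 had a p under 0.05 in limma. The Mcm10 call was lost without any 1 of 5 arrays (HCC replicate 2 or 5, or adjacent liver replicate 3, 4 or 5), with adjusted p up to 0.0967. It was also lost on the mean of the kept probe sets. Of these, 1454244_at had a median of 43.8 in HCC and 32.8 in adjacent liver. Each median lay below the detection filter, so this set cannot decide the direction here. Mcm6 came next at 1.26 ± 0.39 (adjusted p = 0.0986).

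By group mean, HB was the highest of the 4 groups for 32 of the 38 genes, and vehicle liver was the lowest for 22 and adjacent liver for 10. The share of all genes with HB highest was not counted. The median over all genes was also higher in HB, by 0.34 against vehicle liver, 0.19 against HCC and 0.28 against adjacent liver. HCC was highest for Rrm2, adjacent liver for Ung and E2f1, and vehicle liver for Mcm10, Rfc5 and Tk1. In 35 of the 38 HCC was not told apart from vehicle liver by the test, and in 37 it was not told apart from adjacent liver, so the order of the lower 3 groups is not resolved for most genes.

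The choice of probe set mattered for a few genes. Of the 71 kept probe sets of the 38 genes, 33 were second or further sets of 26 genes. In HB against vehicle liver 23 of the 33 were called higher and 1 lower, and 30 had the same sign as the brightest set of their gene. The median over the 33 was 1.82. Mcm10 gave the 1 case of opposite calls. Its sets 1433408_a_at and 1433407_at gave differences of -2.28 and -2.04, whereas 1454244_at read 176 at the lowest, 309 at the median and 1432 at the highest in HB and 26.7, 41.1 and 65.2 in vehicle liver, higher by 2.68 ± 0.49 (adjusted p = 4.30e-05 over all kept probe sets).

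The other Mcm10 set thus rose in HB, as the Mcm2 to Mcm7 genes did, but from a level below the detection filter on every vehicle array. The Mcm10 sets with negative differences were brighter in vehicle liver, at 338 or more for 1433407_at and 1101 or more for 1433408_a_at. Which transcript each set detects is not given in the sources used here. E2f1 was split as well. Its set 1417878_at read 112 to 406 (median 194) in HB and 7.89 to 102 (median 39.3) in vehicle liver, higher by 2.04 ± 0.43 (adjusted p = 2.47e-04), while the brightest set gave 0.60 and 1447840_x_at gave -0.41. The further set of Prim1 was called higher (1.19 ± 0.33), and a further set each of Dut (-0.04), Gins3 (0.26), Pold1 (0.16), Prim2, Gins1 and Rrm2 was not called although the brightest set was. Among the genes whose dimmer set gave the larger difference were Cdc45 (2.57), Rfc4 (2.20), Gins2 (2.73) and Mcm5 (2.64).

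**Figure D4:**
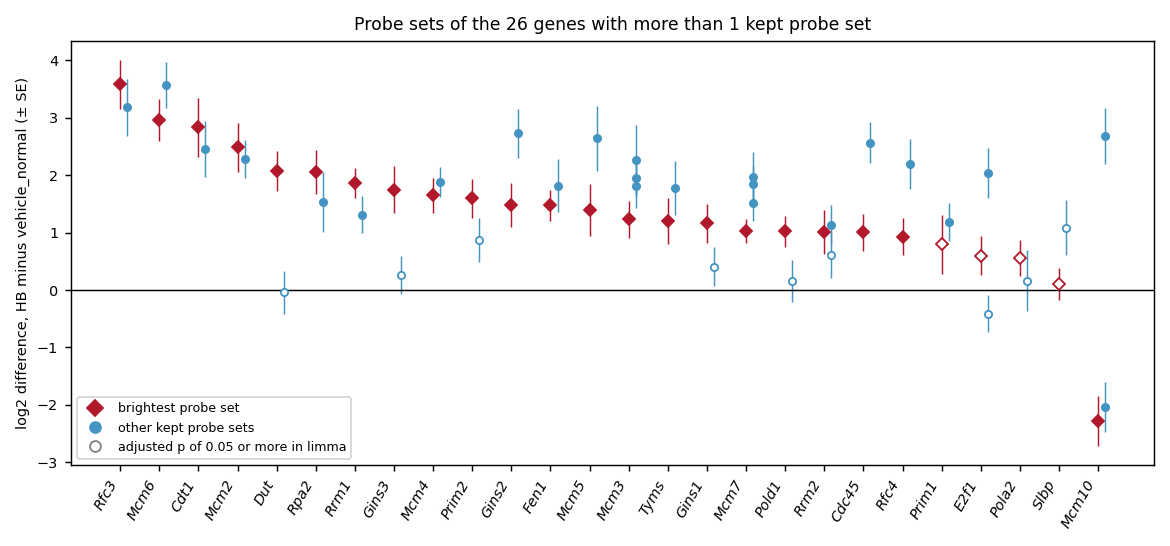
Log2 difference of HB from vehicle control liver (y axis, with standard error) for each kept probe set of the 26 genes with more than 1, the brightest set as a red diamond and the others as blue circles, open where the adjusted p was 0.05 or more. Mcm10, at the right, holds sets at -2.28, -2.04 and 2.68, and E2f1 holds sets at 0.60, 2.04 and -0.41.

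Other genes of replication were read the same way. Of 37 other fork and licensing genes, 21 rose and 3 fell in HB against vehicle liver (median 0.76). Of all genes 37.4% were called higher and 23.1% lower. Rpa1, the large subunit of the single-strand binding protein, rose by 1.60 ± 0.17 (adjusted p = 1.42e-08). Topbp1, which helps load Cdc45, rose by 1.99 ± 0.27, and Cdc7, the kinase that fires origins, by 2.29 ± 0.34. Orc2 rose by 1.53, whereas Orc4 (0.27) and Orc5 (0.18) were not called, and of the polymerase accessory subunits Pold2 (0.15), Pold3 (0.47), Pold4 (-0.37), Pole2 (0.59), Pole3 (0.39) and Pole4 (0.10) none passed. Dna2, a nuclease of the lagging strand, fell by 1.15, Rnaseh2c, a subunit of a ribonuclease that removes RNA from DNA, fell by 0.84, and Rfc2, a further clamp loader subunit, fell by 0.79. With quantile normalization the counts were 11 higher and 2 lower (28.1% of all genes higher), and with median centring 8 and 6 (17.4%).

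Of 28 other nucleotide supply genes 9 rose and 5 fell (median 0.14), beside 37.4% of all genes higher and 23.1% lower. Dctd, which deaminates dCMP on the way to thymidylate, rose by 2.52 ± 0.36, Impdh1, of guanine nucleotide synthesis, by 2.28 ± 0.36 and Pfas, of purine synthesis, by 2.00 ± 0.31. Shmt1, a folate enzyme that provides carbon units for thymidylate and is abundant in hepatocytes, fell by 3.45 ± 0.34. Mthfd1, another folate enzyme, fell by 2.97 ± 0.24, and Paics, of purine synthesis, fell by 1.64 ± 0.21. With quantile normalization 9 rose and 8 fell (median -0.23), beside 3963 higher and 4079 lower of all 14086 genes (median 0.00). With median centring 7 rose and 12 fell (median -0.60), beside 2449 higher and 5439 lower of all genes (median -0.40).

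Of 12 other E2F family and pocket protein genes, 6 rose and none fell in HB (median 0.62), beside 37.4% of all genes higher and 23.1% lower. E2f2, an activating family member, rose by 3.32 ± 0.44 (adjusted p = 4.11e-07), Rbl1, a pocket protein and itself an E2F target, by 2.35 ± 0.29 and Tfdp1, the partner of E2F proteins on DNA, by 1.16 ± 0.22. In HCC, where 4.44% of all genes were called higher, 3 of these 12 rose: E2f2 by 1.70, E2f7 by 1.61 and Tfdp1 by 0.83. With quantile normalization 1 of the 12 was called higher in HCC (2.99% of all genes), and with median centring also 1 (2.05%). Of 10 replication checkpoint genes 5 rose in HB, beside the same 37.4% of all genes. Among them were the kinases Chek1, by 3.77 ± 0.44, and Atr, by 1.29 ± 0.29. Dtl, of the ligase that destroys Cdt1 in S phase, rose by 2.11 ± 0.49. Chek1 was also higher in HCC, by 2.35 ± 0.47 (adjusted p = 0.00267).

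The next 2 lists also stand beside 37.4% of all genes called higher and 23.1% lower in HB against vehicle liver. Of 8 histone chaperones and chromatin maintenance genes, 6 rose in HB (median 1.16). Uhrf1, which guides maintenance methylation at the fork, rose by 2.71 ± 0.48. Asf1b, a histone chaperone, rose by 1.82 ± 0.30 and Nasp, which holds free histones, by 1.61 ± 0.31. Of 11 other base excision repair genes, which hold further glycosylases and the enzymes that mend the gap, 9 rose and 1 fell (median 0.86): Neil3, a glycosylase, rose by 1.92, Mbd4, another, by 1.84 and Xrcc1, a scaffold of the repair step, by 1.09, and Apex1, the abasic site nuclease, fell by 0.81. With median centring, HB against vehicle liver gave counts higher and lower of 3 and 1 for the chaperones, 2 and 1 for base excision repair, 3 and 0 for the E2F family (median -0.11) and 2 and 0 for the checkpoint genes, where 17.4% of all genes were called higher. Against HCC, where 29.2% of all genes were called higher and 21.7% lower, HB was higher for 18 and lower for 3 of the 37 fork and licensing genes, higher for 6 and lower for 5 of the 28 nucleotide supply genes, and higher for 4 of 8 chaperones, 6 of 11 base excision repair genes, 3 of 12 E2F family genes and 4 of 10 checkpoint genes. In HCC against vehicle liver, 2 of the 37 fork and licensing genes and 3 of the 28 nucleotide supply genes were called higher. In each of these lists 1 was lower (2.88% of all genes). Of the 10 checkpoint genes 1 was higher, and of the 8 chaperones and 11 base excision repair genes 0 were, beside 4.44% of all genes.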

How the data were processed

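Amplified, biotin-labelled RNA of each sample was read on 1 expression array, per the labels' protocols. The deposited values are intensities on a linear scale that the authors made with MAS5, per the submitters' processing notes (version and genome build not given in the sources used here). Each array had been scaled to a 2% trimmed mean of 500, which was checked on the values. Log2 values, log2(intensity + 16), were computed here from the deposited intensities. Of 45101 probe sets, 34945 had 1 gene, 932 several, 9160 none and 64 were controls. The detection filter asked for at least 6 arrays above 66.3, the 40th percentile of the whole table; 32762 sets passed, and each gene took its brightest. A linear model with 1 mean per group, over all 23 samples, was fitted in limma 3.58.1 (R 4.3.3) with a variance trend, for 6 comparisons, with two-sided p-values and Benjamini-Hochberg adjustment over 14086 genes. The test was tried on simulated data with known changes first, for HB against vehicle liver. It called 27 of 100 genes changed by 1 log2 unit and 86 of 100 changed by 2. Of its 121 calls 8 were false. A doubling would thus often be missed. Fold changes are on the log2(intensity + 16) scale and understate those of dim genes. Promoters and figures used Python 3.11.15 and matplotlib 3.10.9. The number of arrays limits the precision. All members could be named. From each other gene list, up to 3 called genes per direction with the lowest adjusted p in HB against vehicle control liver were named, with Mki67, Top2a, Alb and Xist. Further subunits (Orc2, Orc4, Orc5, Pold2 to Pold4, Pole2 to Pole4) and the list genes named in HCC were chosen after their values were seen. The members, lists and comparisons were chosen with earlier results of these data known. Alternatives covered pseudocount, scaling, filter, probe sets, variance trend, 2 groups alone, 24 separate arrays, the replicate block and leaving out arrays. Preferring probe sets without an x or s suffix was added after seeing the data.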

Additional observations from a re-analysis of the deposited data

Results flagged for a closer look

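In 8 of 152 sets of samples (38 genes in 4 groups), the highest or lowest value stood far from the rest by Dixon's criterion. The HCC sets hold 5 values. Chance gives about 5% of such sets. In HB, replicate 4 was lowest for Cdt1 (530, next 2216) and for Fen1 (1096, next 2314), and replicate 2 was highest for Mcm10 (1291, next 339). In vehicle control liver, replicate 6 was highest for Mcm5 (1558, next 499.8) and for Rfc4 (762, next 323), and replicate 2 was lowest for Gins2 (10.2, next 109). In adjacent liver, replicate 3 was lowest for Rrm2 (411, next 971) and replicate 1 for Prim1 (95.4, next 517).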

How the results depend on the processing

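Of the single-gene values under all alternatives, 5382 stayed on their side of the threshold, with no change of sign among those called, 181 fell short of it, 68 passed it and 1 called value changed sign: Mcm10 in HB against adjacent liver, at 0.081 on the mean of kept probe sets. The cause of the shifts below was not tested. With median centring, higher counts were 13 (HB against vehicle), 0 (HCC against vehicle), 7 (HB against HCC) and 13 (HB against adjacent liver), lower counts 2 (HB against HCC) and 4 (HB against adjacent liver), and medians 0.48, 0.49 and 0.57 for HB against vehicle, HCC and adjacent liver. Of all genes 17.4%, 2.05%, 14.6% and 17.1% were called higher in these comparisons. Of 14086 genes, 4973 were lower in HB against HCC and 5157 in HB against adjacent liver. Quantile normalization gave 1 higher in HCC against vehicle, 15 higher in HB against HCC and 4 lower in HB against adjacent liver. Beside these, 2.99% and 23.8% of all genes were called higher, and 3974 of 14086 lower. Without the Xist arrays 1 was lower in HB and 0 higher in HCC against vehicle, the median of adjacent liver against vehicle was -0.045, and 0 were lower in HCC against adjacent liver. Of 14086 genes, 2528 were then lower in HB and 0.973% higher in HCC against vehicle. In HCC against adjacent liver 45 of all genes were lower. Without the albumin-rich HB arrays lower counts in HB were 1 against vehicle, 0 against HCC and 1 against adjacent liver, beside 3150, 2957 and 3039 of 14086 genes. The mean of kept probe sets gave 1 lower in HB against adjacent liver and 2 higher and 0 lower in HCC against adjacent liver. Beside these, 2877 of 14086 genes were lower in HB, and 1.45% higher and 87 genes lower in HCC. With 24 separate arrays 4 were higher in HCC against vehicle (5.77% of all genes, against 4.44% in the main fit). Against adjacent liver 1 was higher (2.29% of all genes, against 1.32% in the main fit). There, preferring sets without an x or s suffix gave 2 (1.32% of all genes). With only the 2 groups 0 were lower in HB against HCC and in HCC against adjacent liver, beside 2885 and 14 of 14086 genes. Leaving out 1 array gave 1 to 3 lower in HB and 1 to 4 higher and 1 to 2 lower in HCC against vehicle, 0 to 1 lower in HB against HCC, and 0 to 2 higher and 0 to 1 lower in HCC against adjacent liver. Of all genes 3.00% to 4.98% were then higher in HCC against vehicle and 0.667% to 2.89% against adjacent liver. Lower were 3149 to 3229 of 14086 in HB and 240 to 508 in HCC against vehicle. In HB against HCC 2846 to 3043 were lower, and in HCC against adjacent liver 33 to 206. The numbers were not taken to pair the samples, since 1 of 36 same-numbered pairs had a correlation of deviations over 0.1 (0.504, HCC 1 and adjacent liver 1). With the replicate number as a block and 24 separate arrays, 30 members were higher in HB and 2 in HCC against vehicle. In HCC against adjacent liver 1 was higher. Beside these, 37.5%, 5.58% and 2.09% of all genes were higher. The 24 arrays without the block gave 30, 4 and 1, beside 37.7%, 5.77% and 2.29% of all genes. Low intensities, as for Cdc6, Tyms, Gins3 and Chaf1b outside HB, limit the precision of their differences. The same holds for Chek1, E2f2, Dctd, Mbd4, Dtl and Top2a (median 46.6) in vehicle liver.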
